A study of Mus musculus with 7 samples.

Results

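The 53 genes of the sarcomere, of contraction and of calcium handling in skeletal muscle were examined for m6A peaks. They were taken from a list of symbols that was chosen with earlier results of these data known. All 53 were found in the RefSeq annotation of GRCm38, which holds 21900 protein-coding genes. The m6A MeRIP-Seq, in which mRNA fragments are captured with an antibody against N6-methyladenosine (IP) and sequenced beside the input, was performed on C57BL/6 muscle at day 2 after injection of cardiotoxin (CTX), a toxin that destroys muscle fibres. There was 1 IP and 1 input library from METTL3 cKO mice (Pax7CreERT2 with METTL3 flox/flox) and 1 of each from control (CTL) mice (Pax7CreERT2 with METTL3 wt/wt), all given tamoxifen before the injury. C2C12, a mouse myoblast line, had 2 IP libraries and 1 input library. The labels call the genotype of both C2C12 IP libraries a knockout, whereas the methods name no knockdown for them, and their protocols also describe differentiation in horse serum, so the state of these cells is not settled here. Pax7CreERT2 acts in muscle stem cells, whereas mature fibres, leukocytes and other cells of the muscle are not its target. The age of the mice and the number of mice per library are not given in the sources used here.

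The sarcomere is the contractile unit of the fibre. Thick filaments of myosin slide along thin filaments of actin, tropomyosin and troponin, the Z-disc anchors the thin filaments, and titin and nebulin act as elastic or measuring scaffolds. A nerve impulse reaches the calcium store through the acetylcholine receptor and the voltage sensor, and calcium released through the ryanodine receptor starts contraction. CTX destroys fibres, and these genes are made again as new fibres form from muscle stem cells. The m6A mark is written by METTL3 with its cofactors, mostly within the sequence GGAC and its relatives, often in long internal exons and near stop codons.

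Of the 53 genes, 20 (37.7%) have at least 1 peak in the muscle table, which lists a peak for 16.9% of all protein-coding genes. The 53 genes were chosen with earlier results of these data known, so these shares are not an independent comparison. Long genes offer more sequence in which a peak can be found. The median span of the 20 genes on the genome, introns included, was 62.7 kb, against 17.2 kb for the 33 genes that are not listed. It was 28.95 kb for all protein-coding genes with a muscle peak and 17.1 kb for all protein-coding genes. The length of the mRNA was not used here. The part of gene length in this count was not tested. Every row of the table carries an FDR of the authors' own test between the genotypes at or under 0.05 to rounding. A gene without a row may therefore carry m6A that passed no such test. The table gives 1 fold enrichment of IP over input per peak, with no sample named, and no value per library, so the genotypes were not compared here. Depth is unknown for all libraries because neither table holds counts.

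The groups held 5 to 15 genes each and the gene families within them at most 6. Such small counts cannot be read against the 16.9% of all protein-coding genes that have a muscle peak. Calcium handling had the highest share, with 6 of 8 genes (75%) listed, namely Ryr1, Cacna1s, Jph1, Jph2, Trdn and Atp2a2. Among Z-disc and stretch-responsive genes, 8 of 14 (57.1%) are listed, namely Xirp1, Xirp2, Ldb3, Synpo2, Flnc, Actn2, Tcap and Des. Of the 15 genes of the thick filament and the elastic scaffold, 4 (26.7%) are listed, namely Ttn, Mylk2, Myom1 and Mybpc2. Of the 11 thin filament genes 2 (18.2%) are listed, namely Tpm2 and Tpm3. No peak is listed for any of the 6 myosin heavy chains (Myh1, Myh2, Myh3, Myh4, Myh7 and Myh8), the 6 troponins, the sarcomeric actins Acta1 and Actc1 or the light chains Myl1 and Mylpf. The same holds for Neb, Mybpc1, Myom2, Actn3, Nexn, Csrp3, Ankrd1, Ankrd2, Synpo2l, Tpm1, Atp2a1 and Casq1. The fusion factor Mymk, the creatine kinase Ckm and the neuromuscular junction genes Chrna1, Chrnb1 and Musk also have no muscle peak. Ckm, Acta1, Myh4 and Atp2a1 are defining markers of mature fibres, and 0 of them have a muscle peak. With 4 genes this count cannot be read against the 16.9% of all protein-coding genes. The table holds no expression levels, so a missing row is no measure of the RNA of these genes. Such a gene may carry no m6A, or m6A that did not pass the authors' test between the genotypes. Nor can a smaller number of fibres and less RNA per fibre be told apart in bulk muscle. The reason for the missing rows was not tested.

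Most of the listed sarcomere and calcium genes had weak peaks. Taking the strongest peak of each gene, the median fold enrichment of the 20 genes was 5.35, with quartiles of 3.35 and 16.9, against a median of 19.8 and quartiles of 6.9 and 77.3 for the 3705 protein-coding genes in the table. Only Xirp1, Jph1, Ldb3, Synpo2 and Jph2 reached the median of all genes, and 15 lay below it. A strongest peak under 5-fold was found in 9 of the 20 genes (45.0%) and in 18.0% of all listed genes. Over peaks, the 55 peaks of these genes ran from 1.16 to 118 with a median of 2.73, while the 5412 peaks of the table had a median of 12.9. After Jph2 at 20.5 came Tpm3 at 15.7, and the other 14 genes lay between 1.7 and 8.13.

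**Figure D1:**
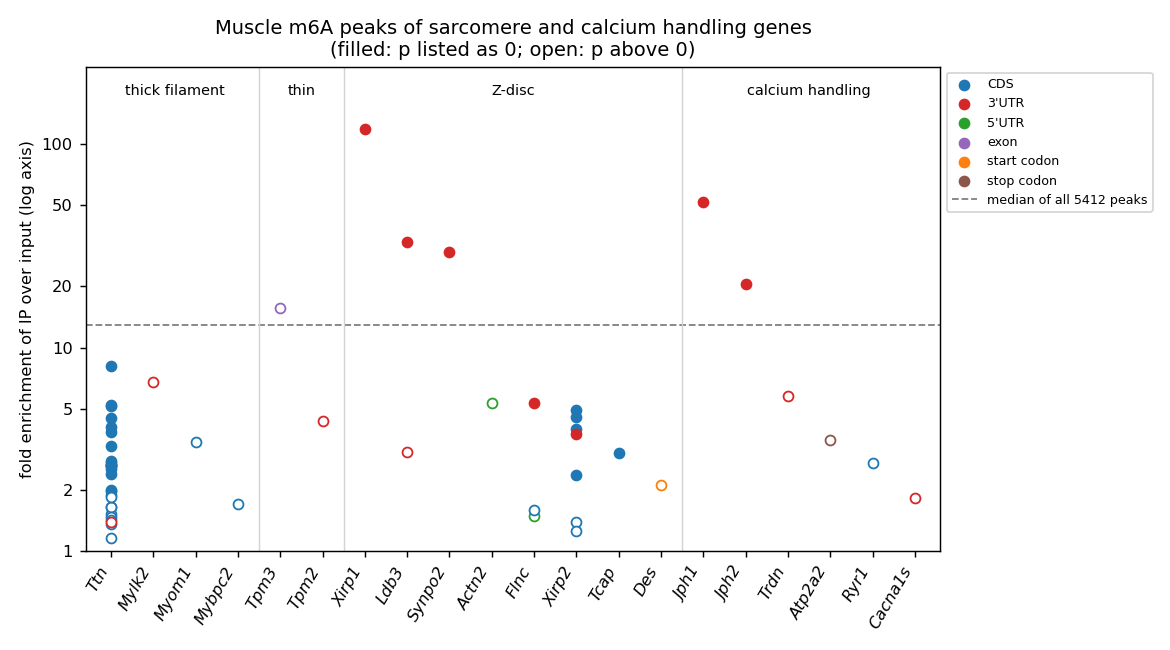
Fold enrichment of IP over input (log axis) of each of the 55 muscle peaks, by gene within its role group; colours give the annotation of the peak, filled points have a peak p-value listed as 0, and the dashed line is the median of all 5412 peaks, 12.9. The 6 peaks above the line belong to Xirp1, Jph1, Ldb3, Synpo2, Jph2 and Tpm3.

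**Figure D2:**
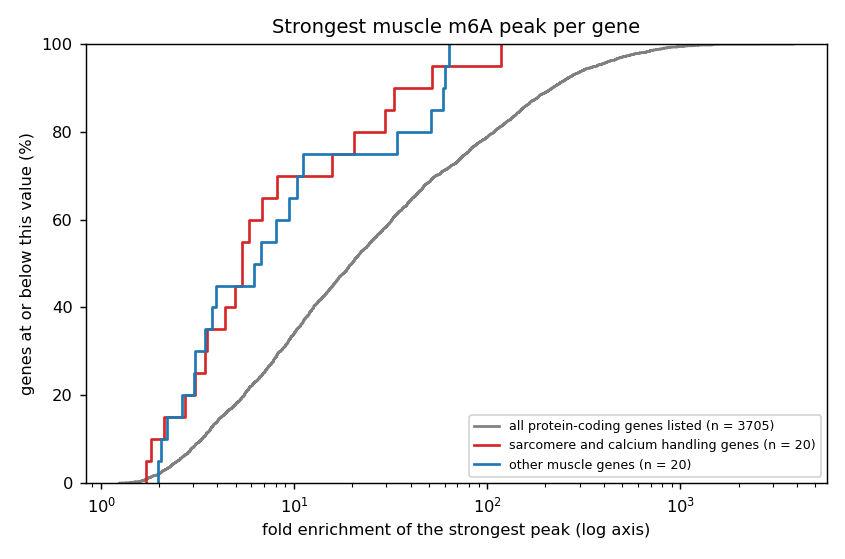
Cumulative share of genes (%) by the fold enrichment of their strongest muscle peak (log axis), for the 3705 protein-coding genes listed, the 20 sarcomere and calcium handling genes and the 20 listed genes of a second list of muscle genes. Both muscle curves lie to the left of the curve of all genes over most of their range, with medians of 5.35 and 6.47 against 19.8.

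The Z-disc genes held the strongest peak. Xirp1 encodes a Xin protein that binds actin and is known from damaged fibres, and its peak of 2516 bp in 2 exon blocks lies on chromosome 9 from 120013755 to 120016661 (GRCm38, minus strand). The peak was annotated to the 3′UTR, ended at the annotated 3′ end of the gene and held 18 GGAC sites and its fold enrichment of 118 placed the gene at rank 693 of 3705. Its paralog Xirp2 differed in kind, with 7 peaks that covered 4799 bp between fold enrichments of 1.26 and 4.93. Of these, 6 were annotated to the coding sequence (CDS), centred between 62.8 and 70.5 kb from the 5′ end of the gene, and 1 of 1618 bp to the 3′UTR, ending 6 bp before the annotated end. The strongest Xirp2 peak spans 1499 bp of CDS on chromosome 2 from 67508040 to 67509538. All 6 CDS peaks also overlap the annotated lncRNA gene Gm13601. The kit used for the libraries keeps the strand, but the use of strand in peak calling is not given in the sources used here. The pair thus shares a family but not the height of its peaks.

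Ldb3 and Synpo2 encode scaffold proteins of the Z-disc, and each had a strong peak annotated to the 3′UTR. The main Ldb3 peak, of 779 bp on chromosome 14 from 34528638 to 34529416, had a fold enrichment of 32.9 and 3 GGAC sites. A second peak of 150 bp nearer the 3′ end had a fold enrichment of 3.06 and no site. The Synpo2 peak, 841 bp long, lies on chromosome 3 between 123110931 and 123111771 and ends 34412 bp before the annotated end of the gene. It was enriched 29.5-fold and held no GGAC site at all. Of the 901 peaks in the table that are at least as long and as enriched, 19 (2.11%) hold no site. This set holds no peak shorter or weaker than that of Synpo2 and takes all annotation classes, so the share is no matched comparison. Of all peaks over 500 bp, 94.9% hold a site. Other sequences that can carry m6A were not searched, since no genome sequence was used here.

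Filamin C (Flnc), which cross-links actin at the Z-disc, had 3 peaks spread over the gene. The 5′UTR peak of 241 bp had a fold enrichment of 1.49, the CDS peak of 180 bp one of 1.6, and that in the 3′UTR, 839 bp long (chromosome 6, 29461045 to 29461883), one of 5.33. The 3′UTR peak was therefore the highest of the gene and ended 6 bp before its annotated end, but it had 2 GGAC sites where the short CDS peak had 3. Actn2, the actin cross-linker alpha-actinin, had 1 peak of 330 bp at the 5′UTR, with a fold enrichment of 5.37 and no GGAC site. This peak began 28 bp before the annotated start of the gene. Tcap encodes telethonin, which caps the end of titin, and its peak of 948 bp in 2 blocks, on chromosome 11 from 98383811 to 98384953, ran over the whole annotated gene. Its fold enrichment was 3.05, with 6 GGAC sites. The peak of the intermediate filament gene Des was short and weak, with 180 bp at the start codon on chromosome 1 from 75360329 to 75360508, a fold enrichment of 2.12, a p-value of 3.2e-11 and no site.

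Titin (Ttn), the elastic protein that runs from the Z-disc to the M-line, had 27 peaks, more than any other gene of the table. Ahnak followed with 16 and Zbtb20 with 13, while 6.69% of the listed protein-coding genes have 3 or more peaks. The Ttn peaks covered 11336 bp, of which the shortest peak took 151 bp and the longest 1770 bp, and 26 were annotated to the CDS and 1 to the 3′UTR. They covered 4.07% of the 278578 bp of the gene on the genome, introns included, and their share of the mRNA was not computed. Their fold enrichments ran from 1.16 to 8.13 with a median of 2.53, and 11 of the 27 were under 2-fold. The highest spans 1231 bp on chromosome 2 from 76749885 to 76751115 (minus strand) with 11 GGAC sites. The peak with the most sites, 13, spans 1770 bp from 76746016 to 76747785 at a fold enrichment of 5.23. Titin thus had many weak peaks and none that reached the median of all peaks.

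The Ttn peaks were not spread evenly along the genome, where distances include introns. A group of 3 peaks was centred between 36.9 and 38.1 kb from the 5′ end of the gene, with fold enrichments of 3.3, 2.65 and 2, and a single peak at 79.0 kb had one of 1.36. No peak is listed in the next 135 kb. The other 23 peaks lay in the last stretch of 63.3 kb, which begins 214 kb from the 5′ end. The 4 highest peaks, at 8.13, 5.23, 5.15 and 4.52, were centred between 232 and 257 kb. At the 3′ end the 3′UTR peak of 181 bp had a fold enrichment of 1.39 and no GGAC site. Exon structure was not used here, so the peaks were not assigned to the regions of the titin protein.

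**Figure D3:**
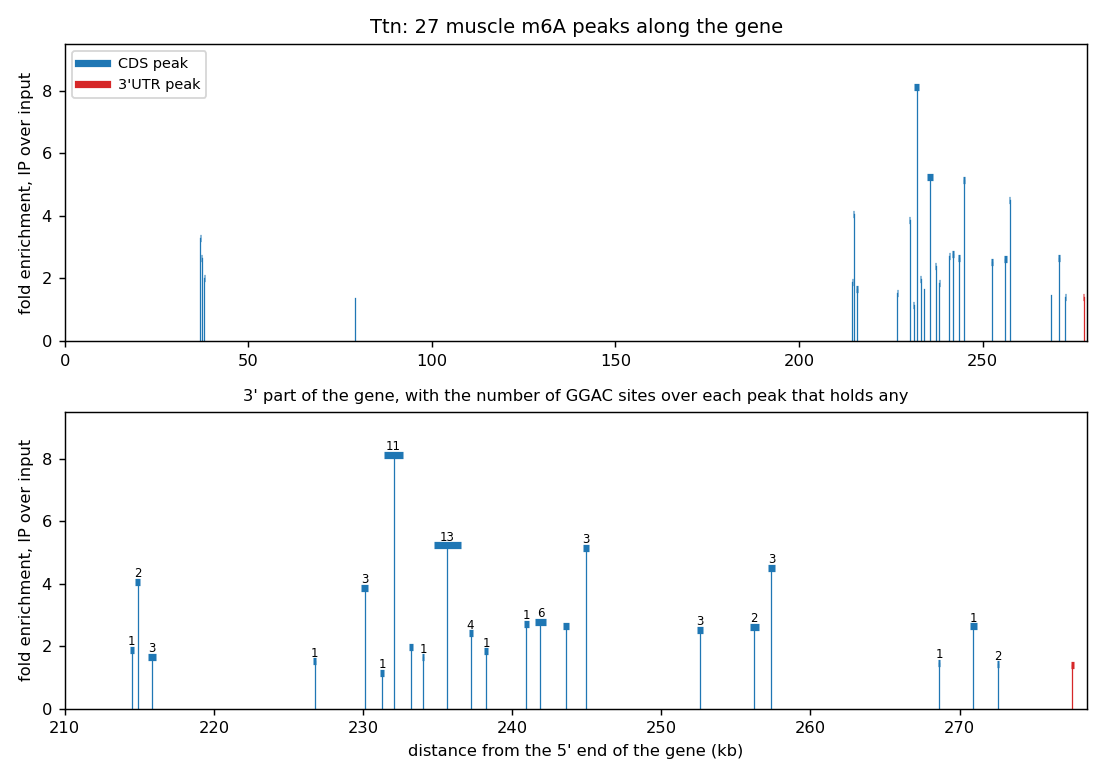
Fold enrichment of the 27 Ttn peaks against the distance from the 5′ end of the gene in kb, with the width of each bar to scale, over the whole gene (top) and its 3′ part (bottom), where the number of GGAC sites stands over each peak that holds any. No peak is listed between 79.1 and 214 kb, and the highest peak, at 8.13, holds 11 sites.

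The other thick and thin filament genes had 1 peak each. Mylk2, the kinase of the myosin light chain in skeletal muscle, had a 3′UTR peak of 478 bp with a fold enrichment of 6.8 and 2 GGAC sites, ending 27 bp before the end of the gene. Myom1, an M-line protein that ties thick filaments together, had a CDS peak of 330 bp at 3.45 with 1 site. Mybpc2, the fast form of myosin-binding protein C, had the lowest strongest peak of the 20 genes, with 121 bp of CDS on chromosome 7 from 44509015 to 44509135, a fold enrichment of 1.7, a p-value of 2e-31 and no site. Tpm2 and Tpm3 encode tropomyosins, which lie along the thin filament and gate the binding of myosin. The Tpm3 peak of 301 bp (chromosome 3, 90088095 to 90088395) was annotated to an exon without a coding or UTR class and had a fold enrichment of 15.7. The Tpm2 peak of 271 bp (chromosome 4, 43515490 to 43515760) lay in the 3′UTR and stood at 4.38. No GGAC site was listed in either tropomyosin peak.

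Among the calcium handling genes, the junctophilins stood above the channels and the pump. Junctophilins tie the calcium store to the cell membrane. The Jph1 peak of 839 bp (chromosome 1, 16996574 to 16997412, minus strand) was enriched 51.7-fold and held 4 GGAC sites. It was annotated to the 3′UTR, but ended 54470 bp before the annotated end of the gene. The Jph2 peak of 1079 bp (chromosome 2, 163336242 to 163337320) was enriched 20.5-fold, also held 4 sites and ended with the 3′UTR at the annotated end of the gene. The remaining 4 genes lay between 1.82 and 5.8. Trdn, which anchors the calcium release complex, stood at 5.8 (271 bp, 3′UTR) and the pump gene Atp2a2 at 3.52 (210 bp, stop codon), both without a GGAC site. The ryanodine receptor gene Ryr1 had a CDS peak of 241 bp (chromosome 7, 29024012 to 29024252), enriched 2.73-fold with a p-value of 5e-45 and 1 site. Cacna1s, the voltage sensor, had a 3′UTR peak of 150 bp (chromosome 1, 136119254 to 136119403), enriched 1.82-fold with a p-value of 3e-10 and 1 site. The table also lists the antisense RNA Gm37759 on the opposite strand, from 136119256 to 136119405, with a fold enrichment of 1.86. The libraries were made with a stranded kit, but whether strand was used to assign reads to peaks is not given in the sources used here, so the values of the sense and antisense gene may share reads.

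The 5 strongest peaks of these genes were annotated to the 3′UTR, and the CDS peaks were weak. The 13 peaks annotated to the 3′UTR, in 12 genes, had a median fold enrichment of 5.8 and a median length of 779 bp, while the 37 CDS peaks, in 7 genes, had medians of 2.62 and 330 bp. In the whole table the order was the other way round, with a median of 9.94 for 3′UTR peaks and 26.7 for CDS peaks. The highest CDS peak among these genes was the Ttn peak at 8.13, which is below the median of all CDS peaks. By number, 23.6% of the peaks (95% Wilson interval 14.4 to 36.3, which covers counting error only) were in the 3′UTR and 67.3% in the CDS, against 48.0% and 31.9% in the table. This share rested on Ttn, since peaks of 1 gene share a transcript. Without Ttn, 12 of 28 peaks (42.9%) were in the 3′UTR, and by the strongest peak of each gene 10 of 20 were.

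GGAC sites were listed at a similar density in these peaks and in the table. The 55 peaks held 129 sites, or 4.70 per 1000 bp, against 4.63 per 1000 bp over all peaks. At least 1 site was listed in 41 of the 55 peaks (74.5%, interval 61.7 to 84.2), against 70.6% in the table. Ttn and the other genes lay on either side of this value. In Ttn, 24 of 27 peaks held a site, with 6.09 sites per 1000 bp, and of its peaks of 250 bp or shorter 8 of 9 did, where 42.0% of all peaks of that length do. However, 26 of the Ttn peaks were annotated to the CDS, and 84.5% of all CDS peaks hold a site, against 62.0% of 3′UTR peaks. All CDS peaks had a median length of 600 bp, and the Ttn peaks one of 301 bp. In the other genes, 17 of 28 peaks (60.7%, interval 42.4 to 76.4) held a site, with 3.73 sites per 1000 bp. The interval for Ttn was 71.9 to 96.1, which takes its peaks as independent although they share a transcript. The difference between Ttn and the other genes was not tested. In peaks of 1 exon block, 62 of 105 sites (59.0%) lay closer to the centre of the peak than to its edge, against 54.7% of the sites in the table.

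**Figure D4:**
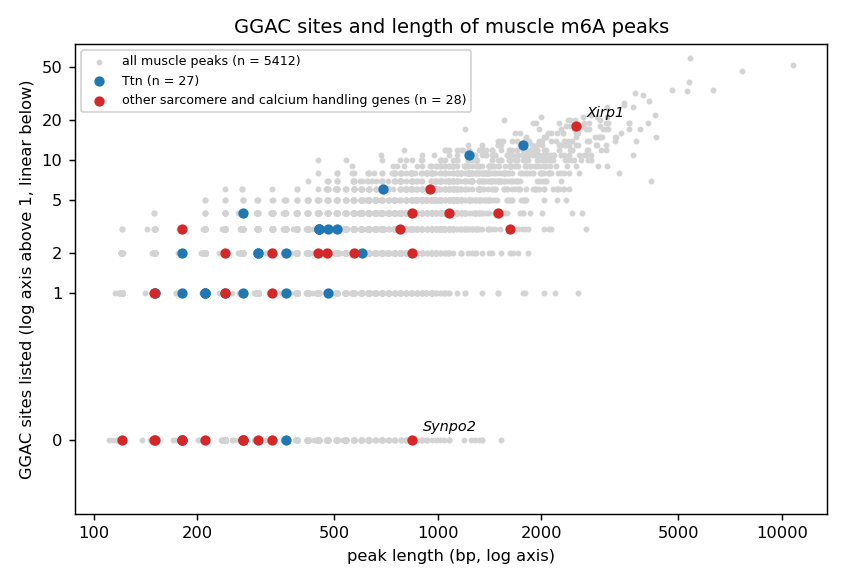
Number of GGAC sites listed in a peak (log axis above 1, linear below) against peak length in bp (log axis), for all 5412 muscle peaks in grey, the 27 Ttn peaks in blue and the 28 peaks of the other sarcomere and calcium handling genes in red. The Xirp1 peak of 2516 bp holds 18 sites and the Synpo2 peak of 841 bp holds 0.

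Peaks of low fold enrichment had a p-value listed as 0 in 3 of these genes. The p-value of the peak is the authors' test of IP over input, and 31 of the 55 peaks (56.4%) have it listed as 0, against 17.2% of all peaks. Among peaks under 5-fold, 22 of 42 are listed at 0, namely 16 in Ttn, 5 in Xirp2 and 1 in Tcap. This share is 52.4%, against 3.79% of the 1347 such peaks of the table and 2.22% of the 1305 that belong to other genes. Without Ttn it was 6 of 18. A p-value of this kind depends on the number of reads as well as on the fold enrichment, and the read counts are not analysed here. The p-values compare single libraries or their pool and not replicates.

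In C2C12, 11 of the 53 genes (20.8%) have a peak, where 17.6% of all protein-coding genes do. They are Ankrd1, Des, Flnc, Synpo2, Synpo2l, Jph2, Tpm1, Tpm2, Tpm3, Chrna1 and Musk. None of the 15 thick filament and scaffold genes is listed, Ttn included. Of the 11 thin filament genes 3 are listed, all of them tropomyosins, and the only Tpm3 peak is in an intron. Such small groups cannot be read against the 17.6% of all protein-coding genes. The C2C12 list gives no enrichment, p-value or site for its peaks, so only their position and annotation were used. The 24 peaks of these genes had a median length of 236 bp, against 285 bp over the whole list. The list places 7 of them in introns, 7 in coding exons, 6 in a 3′UTR and 4 in a 5′UTR. Introns thus held 29.2% of them (interval 14.9 to 49.2), against 12.4% of the whole list. Coding exons also held 29.2%, against 52.6%, and 5′UTRs 16.7% (interval 6.68 to 35.9), against 6.29%. The 3′UTR share was 25%, against 25.9%. These intervals cover counting error only and take peaks of the same gene as independent.

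Jph2 had the most C2C12 peaks of these genes, with 5, a number that 40 genes reach. They lay 449, 21548, 58591, 60130 and 61224 bp from the transcription start site (TSS), in the 5′UTR, an intron, a coding exon and, for the last 2, the 3′UTR. Ankrd1, a stretch-responsive ankyrin repeat protein, had 3 peaks at 391 bp (intron), 7097 bp (coding exon) and 7578 bp (3′UTR), and no muscle peak. Des had 3 and Tpm1 had 3, of which those of Tpm1 were at 12 bp in the 5′UTR and at 1230 and 15153 bp in introns. Synpo2l, a Z-disc relative of Synpo2, had 2 peaks in coding exons at 6124 and 7083 bp. Musk, the receptor kinase that organises the neuromuscular junction, had a peak of 647 bp in a coding exon, and Chrna1, the alpha subunit of the acetylcholine receptor, had one of 199 bp in an intron. The fusion factor Mymk is in neither list.

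Both tables list Des, Flnc, Jph2, Synpo2, Tpm2 and Tpm3, which is 11.3% of the 53 genes, where 7.31% of all protein-coding genes are in both. These 6 are 30% of the 20 muscle genes and 54.5% of the 11 C2C12 genes, while for all genes the shares are 43.2% and 41.5%. Of the C2C12 peaks, 9.29% lie inside the GRCm38 span of their gene, against 95.8% of muscle peaks, so the C2C12 positions were not used as GRCm38 positions, although the labels name mm10 for both. Peaks were therefore placed by their distance from the 5′ end of the gene, which can differ where a gene has several start sites.

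By this distance, 4 of the 6 genes had a peak at the same place in muscle and in C2C12. In Flnc, the muscle 5′UTR peak ran from 103 to 343 bp and the C2C12 peak was centred at 186 bp, and the muscle 3′UTR peak ran from 27892 to 28730 bp and the C2C12 peak was centred at 28403 bp. In Jph2, the muscle 3′UTR peak ran from 60729 to 61807 bp and held the C2C12 peak at 61224 bp. The Des peak at the start codon, from 37 to 216 bp, held the C2C12 centre at 163 bp, whereas the C2C12 peaks in the 3′UTR of Des, at 6762 and 7186 bp, have no muscle counterpart in the table. In Synpo2, the muscle peak ran from 124397 to 125237 bp and the C2C12 peak was centred at 124561 bp. The muscle table annotates this stretch to the 3′UTR and the C2C12 list to an intron. The listed peaks of the tropomyosins differed, with muscle peaks at 7958 bp in Tpm2 and 15594 bp in Tpm3 and C2C12 peaks at 121 and 7024 bp. The muscle table holds only peaks that passed the authors' test between the genotypes, whereas the C2C12 list carries no such test. A muscle peak that did not pass may therefore lie at a C2C12 site without a row. The heights of the peaks could not be set against each other.

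**Figure D5:**
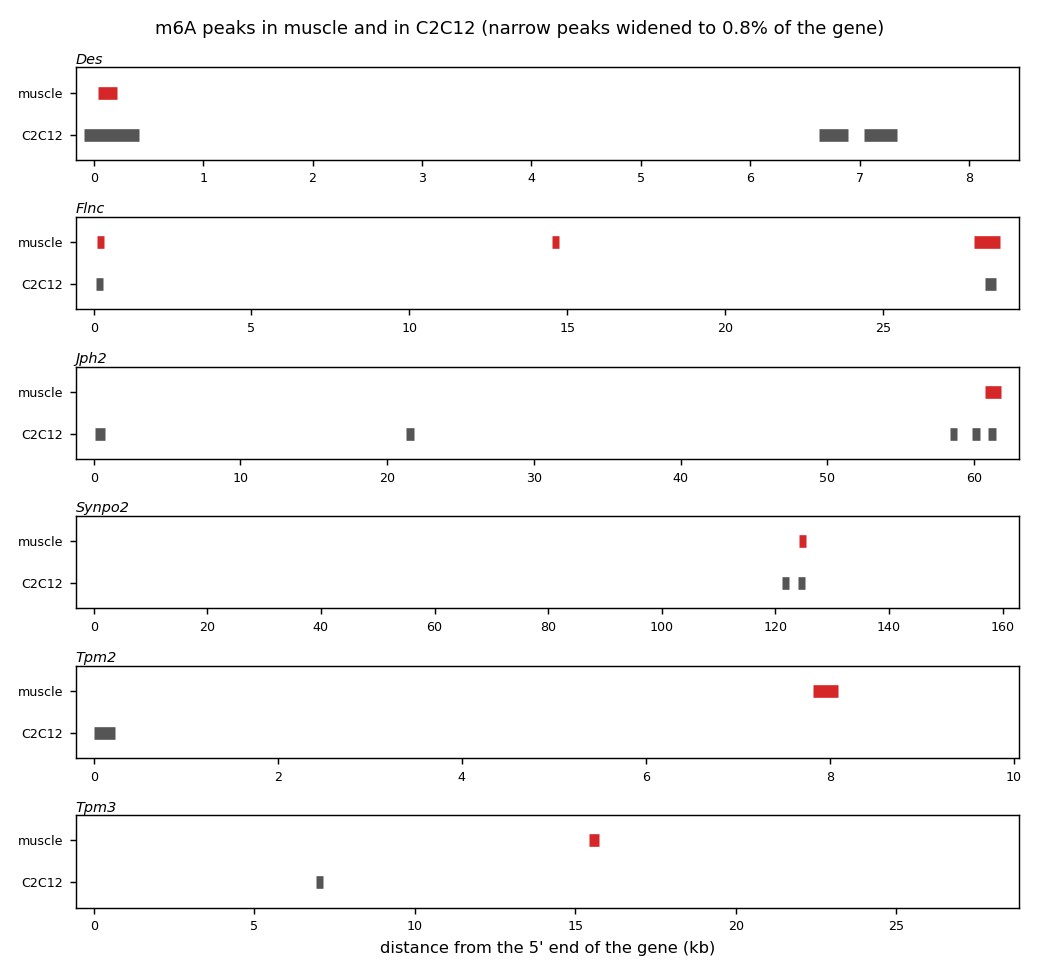
Position of muscle peaks (red) and C2C12 peaks (grey) along the 6 genes in both tables, as the distance in kb from the 5′ end of the gene; peaks narrower than 0.8% of the gene are widened to that size. Listed peaks at the same place are seen in Des, Flnc, Jph2 and Synpo2 and not in Tpm2 or Tpm3. Muscle peaks that did not pass the authors' test between the genotypes are not listed.

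Further genes of the contractile apparatus were taken from a second list of 64 genes, also chosen with earlier results of these data known. Of these, 20 (31.2%) have a muscle peak, against 16.9% of all protein-coding genes, and 14 (21.9%) a C2C12 peak, against 17.6%. Cacna2d1, Cacng1 and Dok7 have both, which is 3 of the 64 genes, where 7.31% of all protein-coding genes are in both tables. The strongest peaks ran from 1.96 to 63.3 with a median of 6.47, and 5 of the 20 genes reached the median of all genes. Those 5 were the M-line gene Myom3 (63.3), the actin filament nucleator Lmod2 (60.3), the calcium buffer Casq2 (59.2) and the calcium channel subunits Cacng1 (51.3) and Cacna2d1 (34.2). At the low end stood Hrc (1.96), a calcium-binding protein of the store, the myosin chaperone Unc45b (2.05) and the Z-disc gene Myot (2.2). The strongest peak was in the 3′UTR in 12 of the 20, against 49.2% of all listed genes.

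Markers of other cells of injured muscle are also in the muscle table, which cannot give the share of these cells. With 3 to 6 genes in a list, the counts cannot be read against the 16.9% of protein-coding genes listed for muscle or the 17.6% listed for C2C12. Of 6 macrophage and leukocyte markers, 2 are listed (Ptprc at 3.28 and Itgam at 2.81), of 4 muscle stem cell and myoblast markers 3 (Pax7 at 39.0, Myod1 at 13.5 and Myog at 6.82), of 3 fibro-adipogenic markers 2 (Pdgfra at 49.7 and Col1a1 at 3.52) and of 3 endothelial markers 1 (Cdh5 at 155). In C2C12, 2 of the 4 muscle stem cell and myoblast markers (Pax7 and Myod1) and 2 of the 3 fibro-adipogenic markers (Pdgfra and Col1a1) are listed. None of the 6 macrophage and leukocyte, the 3 endothelial or the 4 mature fibre markers is. The part of these cells in the peaks of the sarcomere genes was not tested.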

How the data were processed

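Per the labels, reads were mapped with TopHat and peaks called with MACS2 on mm10, with no versions given. The muscle table has the column names of exomePeak, an R package. The authors deposited 1 table of muscle peaks, with the fold enrichment of each peak as a ratio of IP over input and its p-value, and 1 list of C2C12 peaks with positions and annotation. Columns with the log2 fold and FDR of the authors' test between genotypes, and a damaged column of log10 values, were not used, except to check which peaks the table holds. Columns of single samples that were left out numbered 0.

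Python 3.11.15 was used with scipy 1.17.1, pandas 2.3.3, matplotlib 3.10.9 and numpy 2.4.6. Symbols were looked up in the RefSeq annotation of GRCm38, and failing that among its synonyms where these point to 1 gene. Of 3980 muscle names 3808 matched and of 3970 C2C12 names 3954, and no older symbol was needed for the 53 genes. Peak starts are 1-based. The most enriched peak stood for a gene. Shares carry 95% Wilson intervals. With 1 set of values per peak no test was made. Genes described in full were the 5 highest and 5 lowest in fold enrichment, those with 3 or more peaks and those in both tables. The functions were tested on simulated data. The 53 genes and the lists of other genes were chosen with earlier results of these data known. Alternatives concerned the matching of symbols, the threshold on fold enrichment, the peak chosen, the measure of sites and the annotation class.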

Additional observations from a re-analysis of the deposited data

How the results depend on the processing

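The median fold enrichment of the 20 muscle genes stayed between 3.95 and 5.58 with the mean over peaks, the longest peak, peaks of at least 2-fold or without Ttn, where the same settings gave 17.0 to 20.7 over all genes. When peaks below the median fold enrichment were dropped, 6 genes in place of 20 had a muscle peak, 3 in place of 6 were in both tables, and 83.3% of 6 peaks were in the 3′UTR, against 41.2% of all such peaks. At that threshold 66.7% of the 6 peaks held a GGAC site, against 85.8% of all, whereas without it the share was the higher one (74.5% against 70.6%). Asking for the same annotation class in both tables left 3 genes, Des, Flnc and Jph2. Des counts among them only with the start codon class of muscle taken as the coding exon class of C2C12. The 3′UTR share of 23.6% was 50% by the strongest peak of each gene, 42.9% without Ttn and 36.5% by bases, and 36.8% of the bases of all peaks were in the 3′UTR. The share with a GGAC site was 60.7% without Ttn, and the density was 4.70 sites per 1000 bp. Fewer peaks enter the stricter settings, and the cause of the other moves was not tested. The alternatives without Ttn were chosen after seeing the data. The other counts stayed within 1.5 times and the other shares within their intervals. Leaving out each library was not run, because the tables hold no values per library. No paired analysis was possible because the tables hold no values per library and each genotype has 1 library of each kind. Depth is unknown, so no limit of detection was set.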
